A study of Homo sapiens with 12 samples.

Results

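By their labels, the comparison set 2 lymphoma lines against each other. It used the 4 arrays labelled U-H01 uninduced and all 4 arrays of HBL-1, 8 of the 12 arrays of the series. U-H01 is a line from Hodgkin lymphoma, and HBL-1 is a line from diffuse large B-cell lymphoma of the activated B-cell-like type. All of these cells had been transduced with doxycycline-inducible hairpins against RelB or cRel, so none of the arrays is from untransduced cells. The U-H01 arrays came from populations B1 and B2 without doxycycline at 2 time points, and the HBL-1 arrays from population C, 2 of them uninduced and 2 induced, at 2 time points. Each line is 1 established culture, grown by the labels in medium with more serum for U-H01 than for HBL-1, and medium and line cannot be told apart. Which hairpin each population letter stands for the labels do not say. Nothing in the labels says that arrays of a set came from separate cultures, so each p-value reflects array-to-array spread of which part or all may be technical.

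A gene was taken where the lowest array of one set lay above the highest array of the other. Of 18417 genes with a single symbol, 8269 had no overlap, 44.9% of all. They divided into 4001 genes that were higher in U-H01 (21.7%) and 4268 that were lower (23.2%). Over 2-fold there were 1396 higher (7.58%) and 1232 lower (6.69%), and over 4-fold 507 higher (2.75%) and 390 lower (2.12%). Most differences were smaller, with 5641 of the genes under 2-fold and a median absolute difference of 0.69 on the log2 scale against 0.22 over all genes. In limma, 8531 genes (46.3%) had an adjusted p under 0.05, 4178 higher (22.7%) and 4353 lower (23.6%), and 7822 of them also had no overlap. A further 447 genes had no overlap but were not called, and 709 were called while their sets overlapped. The p-values come from the same arrays that chose the genes and add no independent support to the choice.

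Hodgkin cells descend from B cells that have shut down most of the B-cell program, and they live on active NF-kB and JAK-STAT signalling and on ligands that speak to the T cells and macrophages around them. Activated B-cell-like lymphoma keeps the B-cell program and draws NF-kB activity from chronic signalling of the B-cell receptor. NF-kB is a family of dimers built from RELA, RELB, REL, NFKB1 and NFKB2, held back by inhibitor proteins and released by receptors of the tumour necrosis factor family, of antigen and of innate ligands.

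Values below are log2 levels in array order: for U-H01, B1 at the first and second time point and then B2 at the first and second; for HBL-1, uninduced at both time points and then induced at both. A difference is U-H01 minus HBL-1 on the log2 scale with its standard error from the limma fit (n = 4 per set). The lower quartile of an array lay between 4.18 and 4.26, and a fold against a level this low understates the change. In these bulk samples fewer cells of a type and less RNA per cell cannot be told apart. Counts of list members without overlap stand against 21.7% of all genes higher, 23.2% lower and 44.9% in either direction. Arrays correlated across genes at 0.991 to 0.996 within the U-H01 set, at 0.992 to 0.996 within HBL-1 and at 0.886 to 0.898 between the sets. In a check of sample identity, 4 of the 8 arrays labelled U-H01 did not match the other arrays of that label. The 4 arrays labelled U-H01 induced correlated at 0.893 to 0.909 with the uninduced ones and at 0.903 to 0.915 with HBL-1. They were kept out of the main fits and entered only an alternative model of all arrays of the series. Elsewhere they are given beside the results as a reference, and U-H01 below always means the arrays labelled U-H01 uninduced.

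**Figure D1:**
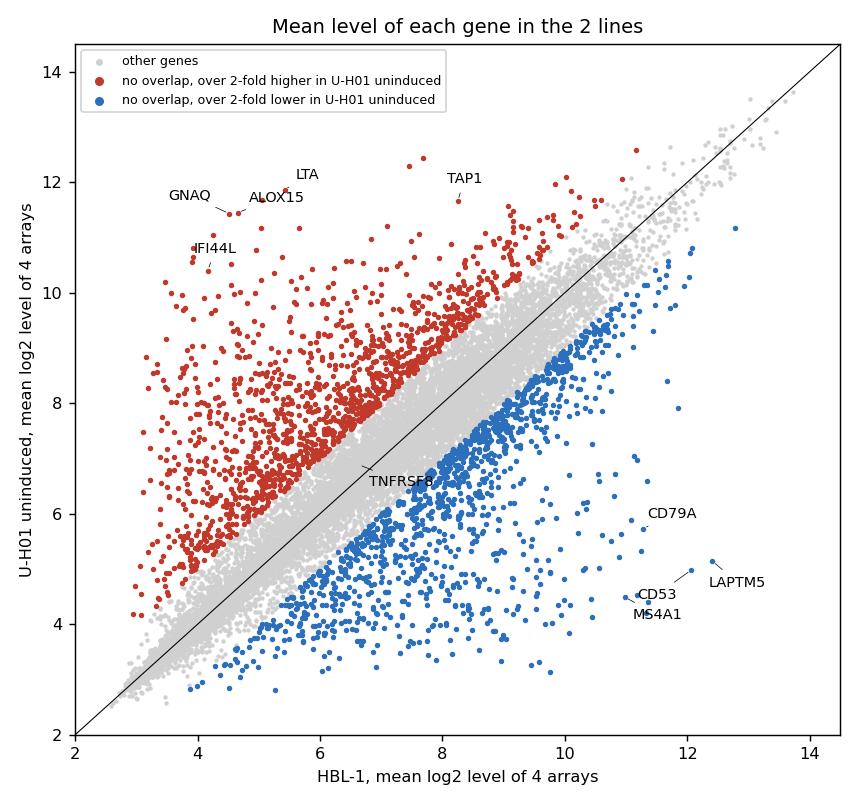
Mean log2 level of each of the 18417 genes in the 4 HBL-1 arrays (x axis) and the 4 arrays labelled U-H01 uninduced (y axis). Red points are the 1396 genes with no overlap and over 2-fold higher in U-H01, blue points the 1232 lower, grey points all others, and the line marks equal levels. The named genes LAPTM5, CD53 and MS4A1 lie far below the line, GNAQ, ALOX15 and LTA far above it, and TNFRSF8 close to it.

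The B-cell surface markers that HBL-1 carried at high level were far lower in the set labelled U-H01. MS4A1, the gene of CD20, read 4.58, 4.56, 4.35 and 4.47 in U-H01 and 10.99, 10.97, 10.9 and 11.05 in HBL-1, a difference of -6.49 ± 0.08 (limma, adjusted p = 2.9e-14). CD79A, a signalling chain of the B-cell receptor, read 5.83, 5.55, 5.7 and 5.84 against 11.24, 11.27, 11.33 and 11.27. Its partner CD79B read 5.98, 6.23, 6.17 and 6.92 against 10.91, 10.92, 10.76 and 10.62. All U-H01 arrays were low and all HBL-1 arrays high for these 3 genes, with no spread of either set near the other. PAX5, the factor that keeps B cells B cells, was less far apart, at 8.98 to 9.12 in U-H01 and 10.53 to 10.83 in HBL-1, a difference of -1.65 ± 0.08 (limma, adjusted p = 3.5e-09).

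The Hodgkin markers did not all follow the label. TNFRSF8, the gene of CD30, read 6.79, 6.65, 7.04 and 7.09 in U-H01 and 6.74, 6.51, 6.64 and 6.61 in HBL-1, and the sets overlapped (difference 0.26 ± 0.11, limma, adjusted p = 0.0584). It read 11.54, 11.68, 11.47 and 11.66 on the arrays labelled U-H01 induced, so the defining marker of Hodgkin cells stood high only on the arrays outside this comparison. FUT4, which makes the CD15 sugar, and the chemokine CCL17 also overlapped between the lines, at differences of 0.25 and 0.23. FSCN1, an actin-bundling protein of Hodgkin cells, did separate the sets, at 8.58 to 9.03 in U-H01 and 6.77 to 6.96 in HBL-1. CCL22, a chemokine that draws T cells, read 7.34 to 7.84 against 6.56 to 7.2. TRAF1, an adaptor that NF-kB induces, went the other way, at 5.73 to 6.0 in U-H01 and 6.45 to 6.89 in HBL-1. Of the whole list of 26 genes of Hodgkin Reed-Sternberg cells, 17 had no overlap and were higher in U-H01, 3 were lower and 6 overlapped. The list median was 0.94, and over all genes 21.7% were higher and 23.2% lower without overlap. TNFRSF8, FUT4, CCL17 and TRAF1 thus go against the Hodgkin label. FSCN1, CCL22, the list as a whole and low MS4A1, CD79A and CD79B go with it. U-H01 is therefore used here as the name of the set and not as a checked cell type. HBL-1 carried its own markers: ENTPD1 was at 10.22 to 10.72 against 3.84 to 4.88 in U-H01, and IRF4 was high in both, at 10.58 to 10.63 in HBL-1 and 10.78 to 11.01 in U-H01.

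**Figure D2:**
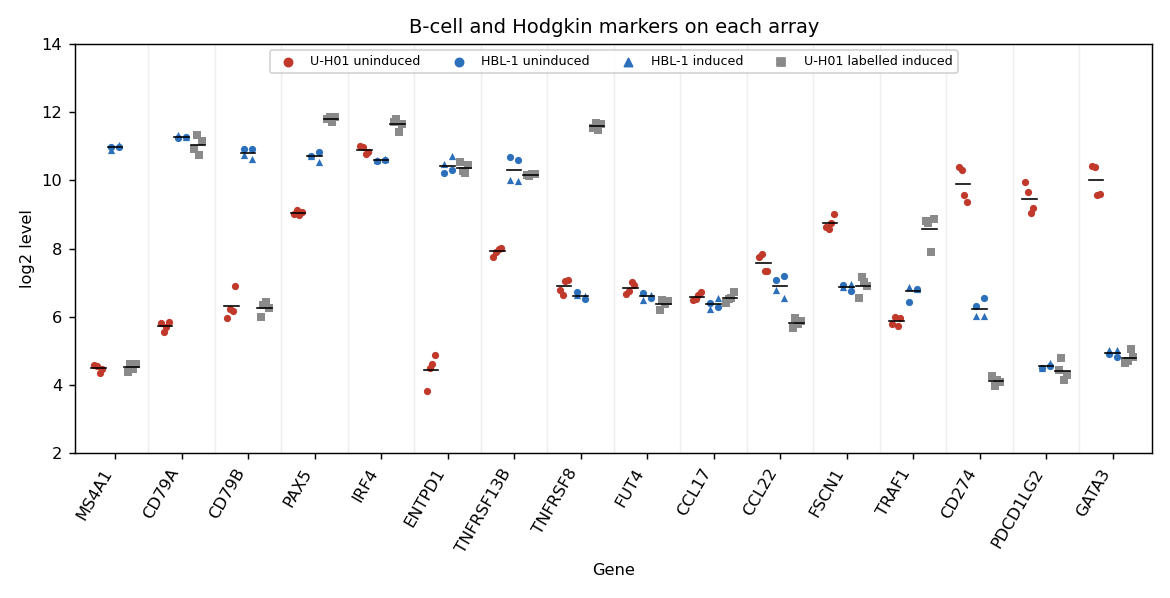
Log2 level (y axis) of 16 B-cell and Hodgkin genes (x axis) on each array. Red circles are the 4 arrays labelled U-H01 uninduced, blue circles the 2 uninduced and blue triangles the 2 induced HBL-1 arrays, grey squares the 4 arrays labelled U-H01 induced, and bars the means of the 3 sets. MS4A1 and CD79A are low in the red set and high in the blue one, while TNFRSF8 is high in the grey set alone. Levels of different genes are not on a common scale.

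The B-cell receptor and B-cell identity list had 29 measured members, and 22 had no overlap and were lower in U-H01, against a background of 23.2% of genes. A further 4 were higher and 3 overlapped, and the median difference of the list was -2.12 against -0.029 over all genes. BTK, the kinase behind the receptor, read 4.45, 4.57, 4.22 and 4.53 in U-H01 and 9.99, 9.97, 9.93 and 10.04 in HBL-1. FCRLA, an intracellular immunoglobulin-binding protein of B cells, was lower by -5.67 ± 0.15 on the same scale (limma, adjusted p = 5.2e-12). SYK, the kinase that reads the receptor's tails, read 4.9 to 5.12 against 10.24 to 10.4, a difference of -5.30 ± 0.08, and the adaptor gene BLNK and the kinase gene BLK differed by -4.04 and -4.10. The 4 members higher in U-H01 were FCER2 at 2.13, IKZF1 at 0.78, TCF3 at 0.53 and PLCG2 at 0.19. FCER2 encodes the low-affinity IgE receptor, and IKZF1 and TCF3 are lymphoid transcription factors. SYK, BLNK, BLK and these 4 genes were picked after their values were seen.

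Of 18 pan-leukocyte genes, which many blood cells share, 13 had no overlap and were lower in U-H01, 4 were higher and 1 overlapped. The list median was -1.26, and 94.4% had no overlap. LAPTM5, a lysosomal membrane protein of blood cells, read 5.08, 5.19, 4.9 and 5.4 in U-H01 and 12.45, 12.48, 12.33 and 12.36 in HBL-1, a difference of -7.27 ± 0.10 or 154-fold (limma, adjusted p = 6.0e-14). CD53, a tetraspanin, read 4.77, 5.38, 5.07 and 4.71 on the U-H01 arrays, and its HBL-1 mean was 12.06. HCLS1, an actin regulator downstream of antigen receptors, was at 4.75 to 5.23 against 10.47 to 10.61. These genes were low on every U-H01 array and high on every HBL-1 array. PTPRC, the gene of CD45, named after its values were seen, was still at 8.53 to 8.82 in U-H01, 0.94 lower than in HBL-1 on the log2 scale (limma, adjusted p = 8.2e-07).

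Others of the 15 largest lower in U-H01 had varied roles. SLC38A1, a glutamine transporter, read 3.93 to 4.51 against 11.16 to 11.47, and ST6GAL1, which puts sialic acid on glycans such as those of CD22, read 4.22 to 4.52 against 11.26 to 11.41. CD180, a Toll-like protein of B cells, read 3.16 to 3.47 against 9.48 to 9.68, and IL17RB, the receptor for IL-25, read 3.71 to 4.11 against 9.98 to 10.18. RASGRP3, which activates Ras after receptor signalling, was at 4.08 to 4.32 against 9.77 to 10.15. Of these, SLC38A1, ST6GAL1, RASGRP3, CD53 and ENTPD1 were near the HBL-1 level on all 4 arrays labelled U-H01 induced. LAPTM5, RUBCNL, MS4A1, CD180 and IL17RB were low there too.

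The activated B-cell-like list had 16 of 21 members without overlap and lower in U-H01, 3 higher and 2 overlapping, with a median of -1.41. PIM1, a survival kinase induced by cytokines and by NF-kB, read 6.89 to 7.13 in U-H01 and 10.68 to 11.46 in HBL-1. SH3BP5, which binds BTK, was 3.04 ± 0.12 lower on the log2 scale in U-H01 (limma, adjusted p = 3.7e-10), and TNFRSF13B, the receptor TACI, read 7.77 to 8.03 against 9.99 to 10.7. The germinal centre list was divided, with 6 members higher, 3 lower and 6 overlapping. BCL6, the repressor that defines germinal centre B cells, was at 5.84 to 6.22 in U-H01 and 8.17 to 8.55 in HBL-1, and ELL3 differed by -2.91. GCSAM, a signalling protein of the germinal centre, was higher in U-H01 by 4.43 ± 0.13 and SSBP2 by 4.70 ± 0.20. Plasma-cell genes were also divided, 6 higher and 6 lower of 16, with ELL2, an elongation factor of antibody-secreting cells, 4.15 higher, and SLAMF7 differing by -4.12 and JCHAIN, the joining chain, by -3.49.

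**Figure D3:**
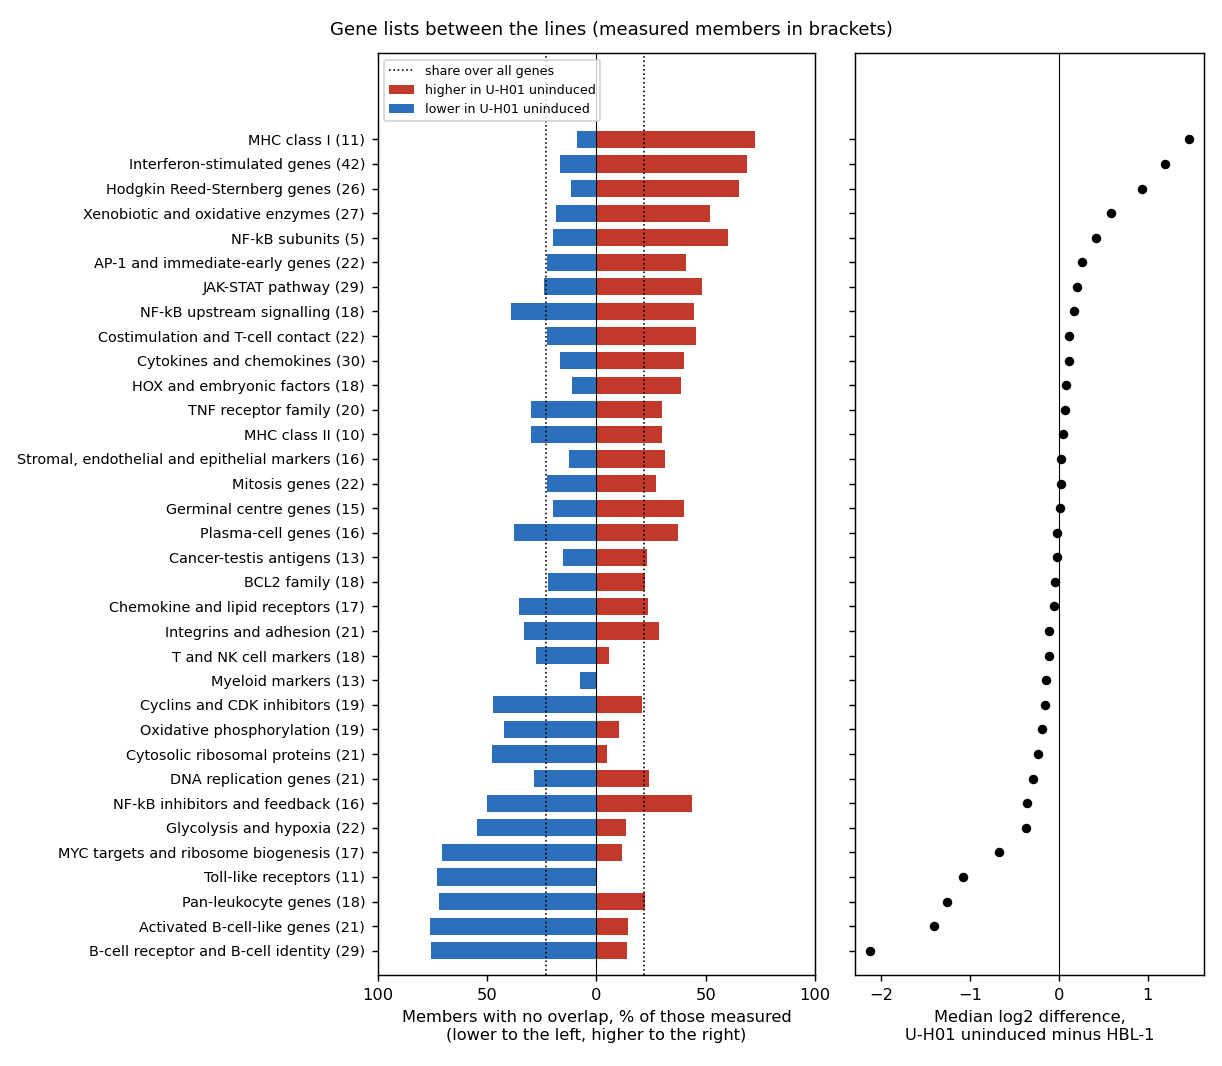
Gene lists by their median difference. Left, the share of each list's measured members with no overlap, higher in U-H01 (red, to the right) or lower (blue, to the left), in percent; dotted lines mark the shares over all genes, 21.7% and 23.2%. Right, the median log2 difference, U-H01 minus HBL-1, from -2.12 for B-cell identity to 1.46 for MHC class I. The number of measured members is in brackets.

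For the NF-kB subunits themselves the lines differed little. NFKB2, the p100 precursor of the alternative pathway, read 9.23, 9.27, 9.29 and 9.34 in U-H01 and 8.59, 8.58, 8.36 and 8.48 in HBL-1, a difference of 0.78 ± 0.08 (limma, adjusted p = 2.9e-06). REL, the gene of cRel, read 10.05, 9.98, 9.92 and 9.88 against 9.7, 9.78, 9.13 and 9.37, a difference of 0.47 ± 0.13 (limma, adjusted p = 0.0087). NFKB1, the p105 precursor, differed by 0.42 ± 0.10 (limma, adjusted p = 0.00389). The 2 induced HBL-1 arrays held the lowest REL values of the 8. Against the uninduced HBL-1 arrays alone, REL differed by 0.22 and was not called (limma, adjusted p = 0.0913). RELA, the main activating subunit, read 8.4 to 8.49 against 8.57 to 8.86, a difference of -0.29 ± 0.08 (limma, adjusted p = 0.0109). Against the induced HBL-1 arrays alone, the calls of NFKB1 and RELA were lost (limma, adjusted p = 0.0644 and 0.139). RELB overlapped, at 7.23 to 7.54 in U-H01 and 7.4 to 7.67 in HBL-1, a difference of -0.18 ± 0.09 (limma, adjusted p = 0.153). RELB was called when the arrays were scaled to 1 median (limma, adjusted p = 0.0492). None of the 5 subunits differed by 2-fold.

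The regulators around NF-kB were further apart than its subunits, in both directions. Of 16 inhibitors and feedback genes, 7 had no overlap and were higher in U-H01, 8 were lower and 1 overlapped (93.8% without overlap). TNIP3, which restrains NF-kB with A20, read 8.75, 8.68, 9.0 and 8.84 in U-H01 and 3.85, 3.81, 3.89 and 3.98 in HBL-1, a difference of 4.93 ± 0.09 (limma, adjusted p = 2.9e-13). NFKBIZ, the nuclear inhibitor-like protein that is active in this lymphoma subtype, read 5.86, 5.79, 5.53 and 5.64 against 8.95, 9.01, 8.86 and 8.76. NFKBID, another nuclear member, differed by -1.87 ± 0.15, and TNFAIP8, an apoptosis regulator induced by NF-kB, by -3.03 ± 0.09. Both nuclear inhibitors were thus low on every U-H01 array. Upstream, 8 of 18 members were higher and 7 lower (83.3% without overlap). PRKCB, the protein kinase C that links the B-cell receptor to NF-kB, read 5.1, 4.7, 4.94 and 4.95 against 9.61, 9.69, 9.92 and 9.76, a difference of -4.82 ± 0.10 (limma, adjusted p = 7.8e-13). TRAF3, the brake of the alternative pathway, read 8.05 to 8.52 in U-H01 and 6.32 to 6.45 in HBL-1, and the adaptors TRAF5 and TAB3 differed by 1.43 and 1.30.

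Of 30 cytokines and chemokines, 12 had no overlap and were higher in U-H01, 5 were lower and 13 overlapped, with a median of 0.12. Without overlap were 56.7%, against 44.9% of all genes. LTA, lymphotoxin alpha, read 12.08, 12.09, 11.7 and 11.57 in U-H01 and 5.66, 5.53, 5.42 and 5.08 in HBL-1, a difference of 6.44 ± 0.14 (limma, adjusted p = 1.5e-12). TNF, the founding ligand, read 10.25, 10.17, 9.97 and 9.92 against 6.09, 5.92, 5.71 and 5.45. IL6, an inflammatory cytokine, read 9.46, 9.24, 8.26 and 7.89 against 4.08, 3.77, 3.83 and 4.16. U-H01 was high on every array, and for IL6 the B2 arrays were below the B1 arrays by 1.27 on the log2 scale (limma, adjusted p = 0.000954). CXCL10, which calls in T cells, was the reverse between populations, with 9.02 and 9.1 on the B1 arrays, 10.4 and 10.26 on the B2 arrays and 3.64 to 3.86 in HBL-1.

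**Figure D4:**
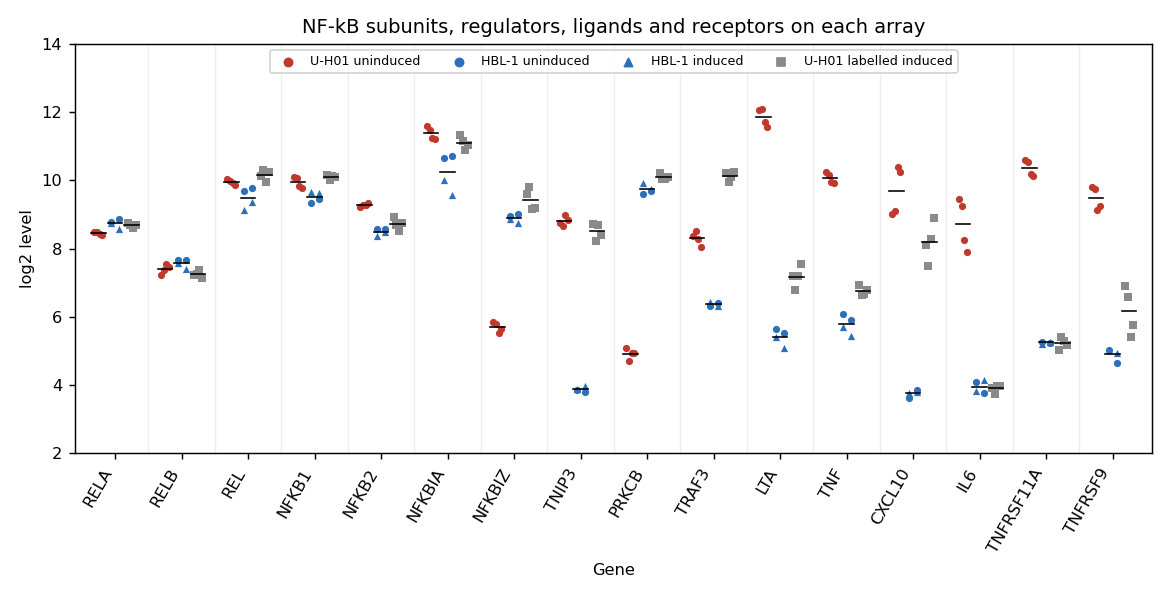
Log2 level (y axis) of NF-kB subunits, regulators, ligands and receptors (x axis) on each array, with colours and symbols by line and label: red for U-H01 uninduced, blue circles and triangles for uninduced and induced HBL-1, grey squares for the arrays labelled U-H01 induced, and bars for the means of the 3 sets. The 5 subunits lie within 1 log2 unit between the lines, while TNIP3, LTA, TNF, CXCL10 and IL6 lie at least 4 apart and PRKCB the same distance the other way.

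Receptors of the tumour necrosis factor family were divided, with 6 of 20 members higher, 6 lower and 8 overlapping. Without overlap were 60%, against 44.9% of all genes. TNFRSF11A, the receptor RANK, read 10.61, 10.54, 10.18 and 10.13 in U-H01 and 5.27, 5.24, 5.22 and 5.28 in HBL-1, a difference of 5.11 ± 0.11 (limma, adjusted p = 1.0e-12). TNFRSF9, the costimulatory receptor 4-1BB, was at 9.14 to 9.81 against 4.66 to 5.04, and the death receptor FAS at 9.09 to 9.84 against 6.17 to 6.47. TNFRSF1B, the receptor TNFR2, differed by -2.73 ± 0.08. Among chemokine and lipid receptors, CXCR5, which guides B cells into follicles, was at 4.32 to 4.97 in U-H01 and 9.47 to 9.64 in HBL-1. P2RY8, which confines B cells to germinal centres, differed by -3.60, while CCR4, the receptor for CCL17 and CCL22, was 2.72 higher and the prostaglandin receptor PTGER4 2.93 higher. Of 11 Toll-like receptors and their partners, 8 had no overlap and were lower in U-H01, 3 overlapped and 0 were higher, with LY86, the partner of CD180, at -3.66, TLR4 at -2.56 and TLR6 at -1.95.

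JAK-STAT genes leaned higher in U-H01, with 14 of 29 members higher, 7 lower and 8 overlapping (72.4% without overlap). IL13RA1, a receptor chain for IL-13, read 10.48, 10.29, 10.08 and 9.94 in U-H01 and 3.28, 3.2, 3.62 and 3.75 in HBL-1, a difference of 6.74 ± 0.14 (limma, adjusted p = 8.6e-13). JAK2, a kinase of cytokine receptors, read 9.61, 9.45, 9.29 and 9.28 against 5.84, 5.94, 6.36 and 6.9. SOCS1, which switches JAK signalling off, was at 7.91 to 8.24 against 5.25 to 5.59. JAK2 was higher on the induced than on the uninduced HBL-1 arrays by 0.74 (limma, adjusted p = 0.0265), and stayed below every U-H01 array. The list median was 0.20, 0.42 against the uninduced HBL-1 arrays alone and 0.07 against the induced ones.

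Costimulation and T-cell contact genes were divided, with 10 of 22 members without overlap and higher in U-H01, 5 lower and 7 overlapping, and a median of 0.12. Members without overlap were 68.2% of the list. Over 2-fold, 8 were higher and 5 lower. PDCD1LG2, the ligand PD-L2, read 9.95, 9.66, 9.05 and 9.18 in U-H01 and 4.49, 4.55, 4.51 and 4.64 in HBL-1, a difference of 4.92 ± 0.16 (limma, adjusted p = 5.4e-11). CD86, a costimulatory ligand, read 10.36, 10.26, 9.75 and 9.72 against 4.47, 4.82, 4.53 and 5.0. SLAMF1 differed by 4.95 ± 0.17 and CD58, the ligand of CD2, by 3.76 ± 0.11. PDCD1LG2 and CD86 were lower in B2 than in B1 and high in both, and CD58 was high on the arrays labelled U-H01 induced as well, at 8.64 to 9.39. CD274, the ligand PD-L1, named after its values were seen, lies next to PDCD1LG2 and read 9.38 to 10.38 against 6.02 to 6.54. With PLGRKT they formed a run of 3 neighbours that were all higher in U-H01, at 1.72 to 4.92. GATA3, a T-helper factor that Hodgkin cells express out of place, read 10.43, 10.4, 9.57 and 9.6 against 4.9, 4.82, 5.02 and 5.03. Both GATA3 and PDCD1LG2 were low on the arrays labelled U-H01 induced, at means of 4.81 and 4.42.

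Interferon-stimulated genes had 29 of 42 members without overlap and higher in U-H01, against 21.7% of all genes, with 7 lower, 6 overlapping and a median of 1.20. IFI44L, a feedback gene of the interferon response, read 10.49, 10.16, 10.43 and 10.54 in U-H01 and 3.95, 3.76, 4.45 and 4.53 in HBL-1, a difference of 6.23 ± 0.16 (limma, adjusted p = 4.9e-12). Its neighbour IFI44 differed by 4.10 ± 0.10, and IFITM1, a membrane protein that blocks virus entry, read 10.02 to 10.49 against 4.88 to 5.25. MX2, a restriction factor from the same response, went the other way, at 4.77 to 5.21 in U-H01 and 9.5 to 9.85 in HBL-1. The list thus did not move as a whole, and IFI44L itself was at only 3.64 to 4.19 on the arrays labelled U-H01 induced.

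The MHC class I list named 17 genes, of which 11 were measured and 6 were not. Of the 11, 8 had no overlap and were higher in U-H01, 1 was lower and 2 overlapped, with a median of 1.46. TAP1, a subunit of the peptide transporter, read 11.61, 11.79, 11.66 and 11.59 in U-H01 and 7.95, 8.11, 8.51 and 8.42 in HBL-1, a difference of 3.42 ± 0.12 (limma, adjusted p = 8.2e-11). ERAP2, which trims peptides, was at 9.39 to 9.63 against 5.97 to 6.17, and the immunoproteasome subunit PSMB9 and the chaperone TAPBP were higher by 2.32 and 2.14. MHC class II was divided, 3 higher, 3 lower and 4 overlapping of 10 measured members. HLA-DOB, which dampens peptide loading, was higher by 3.22, HLA-DPA1 by 1.11 and HLA-DPB1 by 1.32, while HLA-DMA differed by -1.11. Probes for HLA genes can bind alleles and relatives unequally, so these class II values are uncertain.

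Promoter sequences are printed for 3 genes higher in U-H01 and 2 lower ones. The genes stand for the interferon, cytokine, antigen-presentation, pan-leukocyte and B-cell groups, and their promoters differ in their content of CpG. Control of these genes by the printed stretches was not tested. Each is the 250 bases before the transcription start in RefSeq on GRCh38.p14, 5′ to 3′ on the gene's strand, in lower case with nothing marked, and 14219 of the tested genes matched that table. IFI44L lies at chr1:78620198-78620447 on the plus strand, CXCL10 at chr4:76023498-76023747 and TAP1 at chr6:32853705-32853954 on the minus strand, CD53 at chr1:110870960-110871209 on the plus strand and BTK at chrX:101390797-101391046 on the minus strand.
IFI44L: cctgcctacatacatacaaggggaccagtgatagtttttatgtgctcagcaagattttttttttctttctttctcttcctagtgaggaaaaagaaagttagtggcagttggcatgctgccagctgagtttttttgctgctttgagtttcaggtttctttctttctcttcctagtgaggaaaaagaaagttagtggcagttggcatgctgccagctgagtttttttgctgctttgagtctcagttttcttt
CXCL10: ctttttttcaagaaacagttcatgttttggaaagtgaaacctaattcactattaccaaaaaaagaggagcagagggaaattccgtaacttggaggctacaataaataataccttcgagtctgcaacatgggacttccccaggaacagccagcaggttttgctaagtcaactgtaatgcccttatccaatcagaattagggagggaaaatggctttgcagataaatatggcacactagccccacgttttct
TAP1: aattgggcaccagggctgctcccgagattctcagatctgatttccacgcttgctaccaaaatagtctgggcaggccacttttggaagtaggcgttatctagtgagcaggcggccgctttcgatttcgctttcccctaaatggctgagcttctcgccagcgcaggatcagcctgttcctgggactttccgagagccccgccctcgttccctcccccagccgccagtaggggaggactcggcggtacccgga
CD53: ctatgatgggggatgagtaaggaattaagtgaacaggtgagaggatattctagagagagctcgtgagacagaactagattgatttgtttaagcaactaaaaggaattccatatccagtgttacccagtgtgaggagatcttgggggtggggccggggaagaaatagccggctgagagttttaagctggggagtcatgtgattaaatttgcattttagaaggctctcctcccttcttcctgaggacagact
BTK: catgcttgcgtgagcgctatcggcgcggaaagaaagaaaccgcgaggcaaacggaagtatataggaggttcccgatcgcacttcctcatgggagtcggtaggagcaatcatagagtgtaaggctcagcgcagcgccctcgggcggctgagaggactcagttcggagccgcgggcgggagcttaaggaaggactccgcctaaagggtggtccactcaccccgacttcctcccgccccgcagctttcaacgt

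A ratio of observed to expected CpG near 1 is typical of CpG islands, and low ratios are typical of promoters whose CpG is methylated in the germ line. The ratio was 0.0 in the IFI44L stretch, 0.29 in CXCL10 and 0.27 in CD53, against 0.73 in TAP1 and 1.06 in BTK. BTK and CD53, both low in U-H01 and high in HBL-1, thus have promoters of different kinds. Among genes over 16-fold apart, the median ratio was 0.43 for the 81 promoters of higher genes and 0.61 for the 74 of lower genes, against 0.75 over all. The 1154 promoters of genes over 2-fold higher and the 956 of genes over 2-fold lower both had a median of 0.78, and the 4513 of genes without overlap under 2-fold had 0.82, so low ratios went with the over 16-fold genes and not with all genes that separated the lines. A ratio over 0.6 was met by 32 of the 81, by 37 of the 74 and by 9271 of the 14219. In the 35 promoters of the interferon list the median was 0.40, and in the 23 of cytokines and chemokines it was 0.22. It was also low, at 0.44, in the 20 of the B-cell receptor and identity list, most of whose members were lower in U-H01. Within the interferon list it was 0.46 for the 24 promoters of genes higher without overlap and 0.40 for the 11 others. Low ratios in these lists thus did not go with 1 direction. These genes were chosen for the display with their values known, and the figures are a description with no test.

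Over 16-fold there were 101 genes higher in U-H01 (0.548% of genes tested) and 94 lower (0.51%). The lower of the 2 set means was under 6 in 94 of the 101 and 85 of the 94 (array medians were 5.79 to 5.88). GNAQ, a G-protein subunit, read 11.88, 11.58, 11.2 and 11.06 in U-H01 and 4.82, 4.58, 4.38 and 4.29 in HBL-1, a difference of 6.91 ± 0.17 (limma, adjusted p = 2.7e-12). ALOX15, a lipoxygenase that IL-4 and IL-13 induce in other cells, read 11.44, 11.33, 11.61 and 11.42 against 4.86, 4.46, 4.63 and 4.69. SULF1, which trims sulfate from heparan sulfate, read 10.57 to 11.06 against 3.76 to 4.05. MAOA, a monoamine oxidase, was at 10.71 to 11.43 against 4.1 to 4.44. The other genes of the 15 largest were DPP4, a surface peptidase, CYP1B1, an enzyme of steroid and xenobiotic metabolism, IL1R2, a decoy receptor for IL-1, the leukotriene receptor CYSLTR2, CHRNA6, SLC16A4, ANXA1 and DHRS2, with differences from 5.96 to 6.70. GNAQ, SULF1, MAOA, ALOX15 and IL13RA1 were low on all 4 arrays labelled U-H01 induced, while CHRNA6, CXCL10, VIM, ITGA4 and RASGRP1 were high there. VIM, the filament protein vimentin, read 10.72 to 10.83 in U-H01, 4.66 to 5.17 in HBL-1 and 9.19 to 9.87 on those arrays. ITGA4, an integrin chain for homing, was at 9.97 to 10.31, 4.4 to 4.84 and 9.35 to 10.02.

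Of all 2628 genes with no overlap and over 2-fold, the 4 arrays labelled U-H01 induced were all nearer HBL-1 in 1188, all nearer U-H01 uninduced in 1122 and divided in 318. For the 1396 higher genes the counts were 832 nearer HBL-1 and 412 nearer U-H01 uninduced. For the 1232 lower genes they were 356 and 710. These counts share the U-H01 uninduced and HBL-1 arrays with the comparison itself and carry no test.

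Enzymes of xenobiotic and oxidative metabolism had 14 of 27 members without overlap and higher in U-H01, 5 lower and 8 overlapping (70.4% without overlap). The list median was 0.59, 0.32 against the uninduced and 0.85 against the induced HBL-1 arrays. MGST3, a membrane glutathione transferase, was 4.84 ± 0.10 higher (limma, adjusted p = 9.4e-13). Of the AP-1 and immediate-early genes, 9 of 22 were higher and 5 lower (63.6% without overlap). BATF3 read 10.85 to 11.07 in U-H01 and 7.43 to 7.56 in HBL-1, JUN read 8.97 to 9.34 against 6.26 to 6.53, and ATF3 was 2.90 higher. JUN and BATF3 are AP-1 factors that Hodgkin cells are known to carry. DUSP6, a phosphatase that turns ERK off, was 3.76 higher.

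MYC targets and ribosome biogenesis had 12 of 17 members without overlap and lower in U-H01, 2 higher and 3 overlapping, with a median of -0.67. PES1 and RRP12, which process ribosomal RNA, differed by -1.53 and -1.10, NOP16 by -0.94 and MYC itself by -0.84 ± 0.10 (limma, adjusted p = 1.7e-05). Cytosolic ribosomal proteins were lower in 10 of 21 members and overlapping in 10 with 1 higher (52.4% without overlap, against 44.9% of all genes). RPS24 differed by -1.13 and RPL7A by -0.94. Glycolysis and hypoxia genes were lower in 12 of 22, higher in 3 and overlapping in 7. HK2, the first enzyme of glycolysis, differed by -1.09 and GPI by -1.10, BNIP3 by -1.10, while the glucose transporter SLC2A3 was 2.36 higher. Oxidative phosphorylation was lower in 8 of 19, higher in 2 and overlapping in 9 (52.6% without overlap), with SDHD at -1.11. RNA of ribosomal and respiratory genes is abundant, and these differences of a fraction of a log2 unit lie on a scale that RMA sets to like distributions across arrays.

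Cell-cycle genes were divided. Cyclins and their inhibitors had 9 of 19 lower and 4 higher in U-H01 (68.4% without overlap). CDKN2A, which encodes the inhibitor p16, read 9.0, 8.59, 8.83 and 8.33 in U-H01 and 6.18, 6.22, 6.48 and 6.47 in HBL-1, and RB1, the retinoblastoma gene, read 8.67 to 9.19 against 10.5 to 10.69. CCND2, a cyclin of G1, differed by -1.60 and E2F2 by -1.21. Mitosis genes had 6 of 22 higher and 5 lower, and replication genes 5 of 21 higher and 6 lower, shares near the 21.7% and 23.2% of all genes. Of the BCL2 family, 4 of 18 were higher, 4 lower and 10 overlapping, 44.4% without overlap against 44.9% of all genes. BCL2L1, the survival protein BCL-XL, was higher by 1.92 ± 0.15 and the death activator PMAIP1 by 1.54, while BMF differed by -2.49 and the NF-kB target BCL2A1 by -1.45. Among integrins, 6 of 21 were higher and 7 lower (61.9% without overlap), with ITGB2 at -3.56, ITGB7 at -3.59 and PECAM1 at 3.10, or 1.53 by its second probe set.

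Lists of markers of other cell types had mean levels under 6 on every array of both lines, although single members such as KRT18, at means of 7.17 and 7.45, were above the array medians. Of 18 T and NK cell markers, 5 were lower and 1 higher in U-H01 without overlap, and the list's mean level was 5.09 to 5.23 on U-H01 arrays and 5.55 to 5.67 on HBL-1 arrays. The lower ones were GZMB at -2.77, CD247 at -2.43, PRF1 at -1.98, LCK at -0.82 and CD8A at -0.26, and KLRD1 was 0.22 higher and not called (limma, adjusted p = 0.082). The T-cell receptor genes CD3D, CD3E and CD3G overlapped between the lines. Myeloid markers had 1 of 13 without overlap, CD68 at -0.33, with a list mean of 4.13 to 4.36 in U-H01 and 4.31 to 4.41 in HBL-1. Markers of stroma, endothelium and epithelium had 5 of 16 higher and 2 lower (43.8% without overlap), with a mean of 5.53 to 5.70 and 5.41 to 5.43. PECAM1 at 3.10, CDH1 at 1.02 and ACTA2 at 0.59 led the higher ones, KRT8 and COL1A1 followed at 0.43 and 0.26, and EPCAM was at -1.87 and KRT18 at -0.28, the last not called (limma, adjusted p = 0.0881). A second probe set gave 1.53 for PECAM1, -3.37 for EPCAM and 0.01 for KRT18, whose sign thus depended on the probe set. No part of these markers in other results was tested.

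Genes that differed in 1 direction also lay side by side. Along 18366 genes placed in chromosome order, there were 87 runs of 3 or more neighbours that all had no overlap in 1 direction and differed by more than 1 log2 unit. How many such runs a random order of genes would give was not worked out. The longest run was 10 zinc finger genes from ZNF808 to ZNF816, all lower in U-H01, with a median of -2.06 and a range of -4.53 to -1.01. ZNF83, at the far end of that range, read 3.41, 3.11, 3.46 and 3.45 in U-H01 and 7.93, 8.13, 7.59 and 7.91 in HBL-1. A second run of 7 zinc finger genes, from ZNF93 to ZNF626, had a median of -2.15. Zinc finger genes of this kind encode DNA-binding repressors that silence transposable elements, and they stand in clusters of close relatives. Over all 494 genes with a ZNF symbol, a group formed after the values were seen, 175 had no overlap and were lower (35.4%) and 93 were higher (18.8%). The shares over all genes were 23.2% lower and 21.7% higher. Over 2-fold, 97 of the 494 were lower and 23 higher, against 6.69% lower and 7.58% higher of all genes. Of the 97, 70 were also nearer U-H01 uninduced on the 4 arrays labelled U-H01 induced. Relatives can share probe sequence, so the single values are uncertain.

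A run of 6 small nucleolar RNA genes of the SNORD116 cluster, an imprinted locus expressed from the paternal copy, was lower in U-H01 with a median of -3.08. SNORD116-21 read 3.36, 3.37, 3.13 and 3.17 in U-H01 and 9.18, 9.41, 9.38 and 9.85 in HBL-1, and SNORD116-14 and SNORD116-15, from another run of that cluster, differed by -6.62 and -6.31. The copies are close to identical, and a probe set cannot be tied to 1 copy. The longest runs of higher genes had 5 members. HLA-DOB, TAP2, PSMB8, TAP1 and PSMB9 lie together in the class II region and were higher by 1.46 to 3.42, and ILRUN, SNRPC, BLTP3A, TAF11 and ANKS1A by 1.21 to 1.75. A further run of 5 higher genes, from KIFC1 to BAK1 at 1.01 to 1.4, was outside the 6 runs shown. GAS6-AS1, GAS6, RASA3, CDC16 and CHAMP1 formed a run of lower genes with a median of -1.52. GAS6 and its antisense gene cannot be told apart without strand-specific probes.

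**Figure D5:**
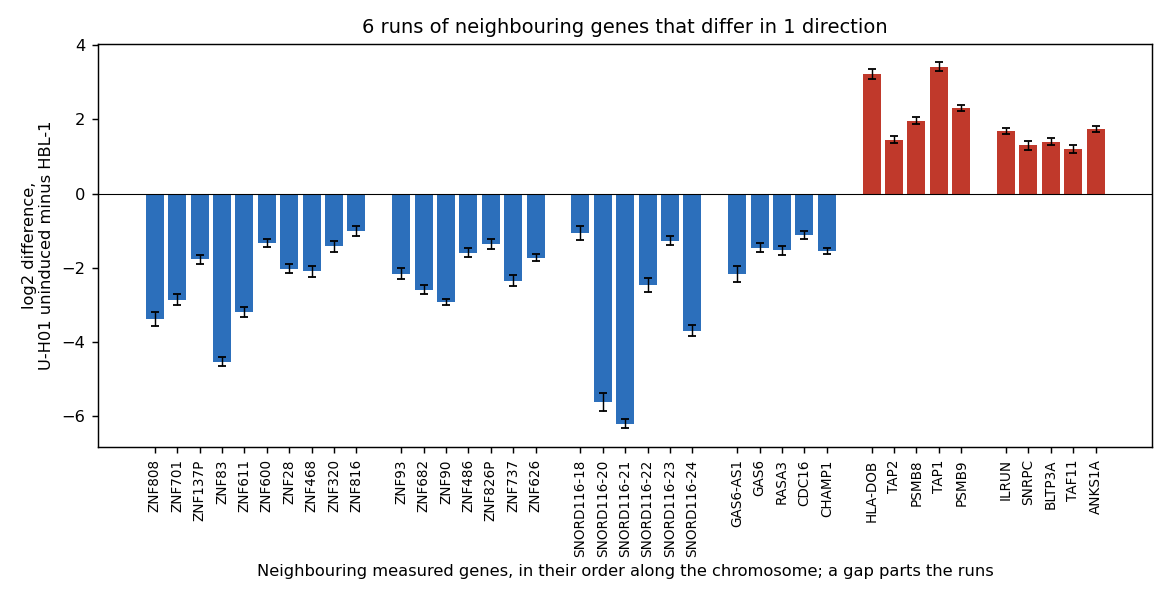
Log2 difference, U-H01 minus HBL-1 (y axis), of the genes of 6 runs of neighbours, in order along the chromosome (x axis, a gap between runs), with standard errors of the limma fit as bars. The 4 blue runs are lower in U-H01, from -6.19 to -1.01, and the 2 red runs are higher, from 1.21 to 3.42.

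At the threshold itself the sets almost touched. GEMIN8, just inside on the higher side, read 6.85 to 7.35 in U-H01 and 6.65 to 6.85 in HBL-1, and NFU1 read 7.88 to 8.07 against 7.49 to 7.88. ORC2 and PYM1 were just inside on the lower side, with differences of -0.21 and -0.14. ZNF124 and PWWP3A, just outside, differed by 0.27 and 0.11, and HRC and ZSWIM2 by -0.26 and -0.11. A gap of at least 0.5 log2 units between the sets was met by 3349 of the 8269 genes.

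The 2 sets were themselves not uniform. Between induced and uninduced HBL-1 arrays 348 genes were called (1.89% of genes tested), 214 of them higher (1.16%) and 134 lower (0.728%) after induction, and 229 of them had no overlap between the lines. IDO1, which breaks down tryptophan, read 10.0 and 9.97 in uninduced and 7.86 and 8.13 in induced HBL-1 arrays, and 3.64 to 3.95 in U-H01. PIEZO2, a mechanosensitive channel, read 8.53 and 8.7, then 6.85 and 6.93, against 9.36 to 9.91 in U-H01. MPZL2 and MYO1E were higher after induction, at 6.75 and 7.54 from 5.42 and 5.08, and at 7.82 and 8.04 from 6.03 and 6.18. In these 4 genes the distance between the lines depended on which HBL-1 arrays stood for the line, and the sets still did not overlap. The count of 348 was 112 in a model of all 12 arrays, and it was 119, 137 and 92 without HBL-1 uninduced replicate 1, uninduced replicate 2 and induced replicate 2.

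Between the populations B1 and B2, 1083 genes were called (5.88%), 311 higher (1.69%) and 772 lower (4.19%) in B2, and 770 of them had no overlap between the lines. SPX, a peptide hormone gene, read 8.04 and 7.75 in B1, 5.64 and 5.46 in B2 and 3.37 to 3.66 in HBL-1. DDIT3, a factor of the stress response, read 10.72 and 10.78, then 9.31 and 9.19, against 6.59 to 7.22. BMP10 read 6.5 and 6.7, then 4.76 and 5.31, against 3.83 to 4.24. SNORD14E, a small nucleolar RNA, ran the other way, with 5.76 and 5.84 on the B1 arrays, then 7.71 and 7.57 for B2, just under the 7.81 to 8.31 of HBL-1. B2 was closer to HBL-1 in these 4 genes, and over all genes the B2 arrays correlated with HBL-1 at 0.894 to 0.898 and the B1 arrays at 0.886 to 0.888. The count of 1083 was 634 in a model of all 12 arrays, and 270, 397, 509 and 234 without U-H01 uninduced replicates 1, 2, 3 and 4.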

How the data were processed

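RNA from 12 samples, labelled as 2 lymphoma lines, was measured on single-colour arrays. The table the authors deposited holds log2 levels. RMA and Partek are the tools that the submitters' processing notes list; their versions are not given there. RMA brings arrays to like distributions, which can hide a shift of all genes. Array medians lay between 5.79 and 5.88. Of 33297 probe sets, 19460 had 1 symbol in the platform annotation, 1754 several and 12083 none. Of those with 1 symbol, 19429 matched RefSeq by Entrez identifier. For 769 genes with several probe sets, the highest by mean over the 12 arrays was used. This left 18417 genes, of which 23 are not reported here. No pair of arrays held identical values (0 pairs).

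Groups came from the sample titles. The 4 U-H01 uninduced and 4 HBL-1 arrays were fitted in limma 3.58.1 under R 4.3.3 (lmFit, eBayes, 6 residual degrees of freedom, two-sided). A second fit with 4 subgroups and 4 residual degrees of freedom compared induced with uninduced HBL-1 and B2 with B1. All p-values were adjusted over 18417 genes by Benjamini-Hochberg, with calls at 0.05. The fit was tested on simulated data. Promoters are the 250 bases before each RefSeq start.

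Named genes were the 15 largest each way, the 4 largest without overlap of each of 34 lists, the NF-kB subunits, all separated markers of other cell types, the 2 genes each way on either side of the threshold, the members of 6 runs of neighbours, the 4 largest within each line, the 5 largest each way by the position of the arrays labelled U-H01 induced, and genes whose promoter is printed. The groups, members and lists were chosen with earlier results of these data known. Alternatives covered the HBL-1 arrays used, subgroups, all 12 arrays, a replicate block, normalization, scaling, low levels, probe sets, moderation and leaving out each array.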

Additional observations from a re-analysis of the deposited data

Results flagged for a closer look

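Of 205 named genes, 9 had a single array far from the other 3 of its set by Dixon's test, which chance alone flags in about 1 in 20 groups. All 9 lay in the U-H01 set. Each HBL-1 state had 2 arrays, too few for this test, so the 9 give no comparison of spread between the sets. The array of population B1 at the first time point stood apart for KRT18 at 6.75 against 7.28 to 7.35 for the nearest others, for MPZL2 at 4.47, for MYO1E at 4.69 and for SNORD116-20 at 4.28. B1 at the second time point stood apart for ANKS1A at 8.96 and ZNF83 at 3.11, B2 at the first for SNORD116-18 at 2.93 and TAF11 at 8.56, and B2 at the second for CDC16 at 8.01.

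The distance between the lines differed between the HBL-1 states for 15 of 205 named genes (7.32%, against 1.89% of all genes), by the test of induced against uninduced HBL-1 in limma over all genes. Of these genes, 4 were named for that difference, and the count over all genes fell from 348 to 92 with 1 array left out. Induced HBL-1 was higher than uninduced for MPZL2 by 1.89, MYO1E by 1.82, JCHAIN by 0.89, ZEB2 by 0.84, JAK2 by 0.74, IFI44L by 0.64 and BNIP3 by 0.53 on the log2 scale. It was lower for IDO1 by -1.99, PIEZO2 by -1.72, TNFRSF17 by -1.06, GAS6-AS1 by -0.89, TNFRSF13B by -0.65, PIM1 by -0.64, NFKBID by -0.50 and REL by -0.49. The 4 genes with the largest such values were chosen for them, so for IDO1, MPZL2, MYO1E and PIEZO2 the difference is a description.

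Between the U-H01 populations the distance to HBL-1 differed for 31 of 205 named genes (15.1%, against 5.88% of all genes), by the test of B2 against B1 in limma over all genes. Here too 4 were named for it, and the count over all genes fell from 1083 to 234 with 1 array left out. B2 was higher than B1 for SNORD14E by 1.84, CXCL10 by 1.27, TNFRSF17 by 1.23, BNIP3 by 1.03, FCRLA by 0.63, MCM4 by 0.52 and GPI by 0.45. B2 was lower for SPX by -2.35, BMP10 by -1.56, DDIT3 by -1.50, IL6 by -1.27, SLC16A4 by -1.12, GATA3 by -0.83, SSBP2 by -0.71, HOXB9 by -0.69, PDCD1LG2 by -0.69, MAOA by -0.64, FAS by -0.60, GNAQ by -0.60, TNFRSF9 by -0.60, CD86 by -0.57, ZNF320 by -0.56, BCL2L1 by -0.55, RPL31 by -0.54, CYSLTR2 by -0.47, SULF1 by -0.47, RPL3 by -0.43, TNFRSF11A by -0.42, NFKBID by -0.39, ZNF826P by -0.39 and ZNF626 by -0.37. SPX, SNORD14E, BMP10 and DDIT3 were chosen for this difference. Each of the genes lower in B2 that was over 16-fold higher in U-H01 than in HBL-1 remained far above HBL-1 in both populations, as with GNAQ, which was 7.21 above HBL-1 in B1 and 6.61 in B2, and SLC16A4, at 6.69 and 5.57.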

How the results depend on the processing

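Against the 8531 genes called between the lines, the alternatives gave 8080 (all probe sets adjusted together) to 9354 (4 subgroups in the fit), apart from 7758 with the uninduced and 7460 with the induced HBL-1 arrays alone, 6279 among genes above the median level and 7267 among genes with a set mean of at least 6. Leaving out 1 array gave 7999 to 8451. Genes without overlap numbered 3349 with a gap of at least 0.5 in place of 8269. Median scaling gave 3421 higher and 5245 lower genes without overlap in place of 4001 and 4268, and 3654 and 5316 called in place of 4178 and 4353, so the near balance of directions depends on the scaling. With 1 array left out, genes without overlap numbered 8668 to 9127, since fewer arrays overlap less. The 348 genes called between the HBL-1 states became 112, and the 1083 between B1 and B2 became 634, in 1 model of all 12 arrays. With 1 array left out, an addition made after the data were seen, they ranged from 92 to 314 and from 234 to 1213; where this left a subgroup with 1 array, that array was assumed to vary like the others. With the time point number as a replicate block the counts were 8350, 347 and 1034. Changes from the first to the second time point correlated at only -0.18 to 0.10 between groups, so the numbers do not pair the samples. Over 205 named genes and 20 alternatives, 3990 values kept direction and side of the threshold, 41 lost the call, 16 gained it and 0 turned. The 16 genes concerned were CD68, CD8A, COL1A1, GEMIN8, HRC, KLRD1, KRT18, NFKB1, NFU1, ORC2, PYM1, REL, RELA, RELB, SNORD14E and ZNF124. Medians of 5 lists took the other sign under at least 1 of 5 settings, none of them over 0.05 in size: germinal centre, MHC class II, BCL2 family, mitosis and stromal, endothelial and epithelial genes. The number of arrays and levels near the low end limit what can be told apart.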

Other observations

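Lists of developmental and germline genes had shares without overlap near or under the 44.9% of all genes. Of 18 measured HOX and embryonic factors, 7 had no overlap and were higher in U-H01, 2 were lower and 9 overlapped (50% without overlap). MEIS1, a partner of HOX proteins in blood stem cells, was 3.55 ± 0.07 higher (limma, adjusted p = 6.6e-13), ZEB2, a repressor of epithelial genes, 2.15 higher and HOXB9 1.41 higher, while ID3, an inhibitor of E proteins, differed by -2.15. Of 13 measured cancer-testis antigens, 3 were higher, 2 lower and 8 overlapping (38.5% without overlap). MAGEB2, PRAME and DDX43 were higher in U-H01 by 2.73, 2.16 and 2.26, and MAGEA1 differed by -3.05. MAGE genes are close relatives, and their probe sets may share signal.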
